A study of Mus musculus with 30 samples.

Results

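The transcripts described here are those of 9 genes of myelin and of the oligodendrocyte, Mbp, Mobp, Mal, Mog, Mag, Cldn11, Cnp, Sox10 and Olig1. They were taken by symbol from a table of 23993 genes, in which all 9 were found. The list was set by gene name and not by a cut on the values, but with earlier results of these data known. All 9 were above 0.4 FPKM in each of the 24 libraries, and the lowest value of any of them was 4.21 FPKM. FPKM is a count of fragments scaled for the length of the transcript and for all mapped fragments, so levels of different genes can be set side by side.

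The libraries are RNA-seq of tdTomato-tagged cells sorted by flow cytometry from the medial prefrontal cortex (mPFC) of adult C57BL/6 mice. All mice were heterozygous for a Cre-dependent tdTomato reporter (Ai9) together with Sst-Cre or Pvalb-Cre, which drive the tag in cells with an active somatostatin or parvalbumin promoter, so that a cell that used the promoter earlier also stays tagged. Nonstressed Sst females gave 7 libraries, nonstressed Sst males 7, Sst males after 14 days of chronic unpredictable stress (CUS) 3 and nonstressed Pvalb males 7. The labels place 6 more samples in Sst and Pvalb female groups, which were not analysed here. SST0-M and SST1-M, and likewise PV0-M and PV2-M, differed by far less than any other libraries of their group (SD of the log2 ratio 0.0212 and 0.017, against 0.267 and 0.225 for the next closest pair). Each pair was averaged and counted as 1 sample, which left 6 Sst male control samples, 6 Pvalb samples and 22 samples in all.

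Myelin is the layered membrane that oligodendrocytes wrap around axons. Its compact layers are held together by small proteins such as myelin basic protein, its outer surface and the edge next to the axon carry adhesion proteins, and the genes for all of them are switched on by a small set of transcription factors as an oligodendrocyte matures. In bulk RNA of this kind, fewer cells of a type and less RNA per cell cannot be told apart.

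The label of sorted interneurons was checked against marker genes. The summed level of 10 interneuron genes was 4.3 to 70.2 FPKM over the samples, while that of the 9 oligodendrocyte genes was 238 to 1103 FPKM and that of 12 microglia genes 3793 to 10677 FPKM. Sst itself, the gene whose promoter drives the tag, was at 4.18 to 49.3 FPKM in Sst females, 0 to 6.02 FPKM in Sst male controls and 12.5 to 30.5 FPKM in the Pvalb samples. Pvalb was at 0.89 to 5.07 FPKM in the Pvalb samples and at most at 1.93 FPKM in the Sst controls, so the line names below are those of the labels. Xist was at 300.2 FPKM or more in 3 libraries labelled male (PV1-M, PV4-M, PV5-M) and at most at 6.64 FPKM in the other Pvalb libraries. Sst male controls have titles of a pair of kinds, numbered (SST0-M to SST4-M, 3 samples) and dated (SS04031R, SST040241L and SST04241LL), and all 3 CUS titles are dated. For the members, the comparisons of CUS and of sex are therefore also given within one kind. Small nucleolar and Cajal body RNAs took 53.5% to 75.7% of the summed FPKM in the 6 libraries with dated titles of either group and 1.87% to 8.29% in the 18 others. SS04031R stood apart from the other dated controls, with the lowest level of Mbp, Cnp and Olig1 of any library and the highest sum of microglia markers.

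Mbp was the most abundant of the 9, at 292 ± 118 FPKM (SD, n = 22 samples), which put it at percentile 99.0 of the genes above 0.4 FPKM. Mal followed at 106 ± 64.2 FPKM, Cnp at 103 ± 47.0 FPKM and Mobp at 62.7 ± 29.8 FPKM. Mag (35.0 ± 30.3 FPKM), Cldn11 (28.4 ± 21.9 FPKM), Olig1 (27.3 ± 9.31 FPKM), Mog (25.1 ± 14.2 FPKM) and Sox10 (18.4 ± 13.2 FPKM) came last. Mal and Cnp differed by less than their spread, and so did each neighbouring pair from Mobp downwards. Mbp was above Mal in every sample, although the ratio ran from 1.05 to 16.8. Between the lowest and the highest library the level varied by 5.00 times for Cnp, 9.98 times for Mbp, 11.9 times for Sox10 and 13.5 times for Cldn11.

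Among the compact myelin proteins, Mbp, which binds the inner faces of the membrane together, was at a lowest, median and highest level of 214, 266 and 301 FPKM in Sst females and 329, 445 and 518 FPKM in the Pvalb samples. It was at 170, 288 and 314 FPKM in numbered Sst males, at 51.9, 146 and 173 FPKM in dated ones and at 243, 280 and 285 FPKM after CUS. Every Pvalb sample was thus above every Sst sample, and every CUS sample above every dated control. Mobp, a basic protein of the same layers, had values of 55.6, 62.9 and 79.8 FPKM in Sst females, 25.5, 42.8 and 45.0 FPKM in numbered males, and 26.1, 82.2 and 95 FPKM in dated males. It was at 97.8, 114 and 125 FPKM after CUS and at 23.5, 38.8 and 93.7 FPKM in the Pvalb samples. The CUS samples were the highest, above all controls. Mal, a membrane protein that takes part in the sorting of lipids and proteins to myelin, stayed between 90.1 and 114 FPKM in the 7 Sst females. In Sst males it ran from 42.6 to 235 FPKM in controls and was at 162, 197 and 217 FPKM after CUS, within the range of the controls.

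Of the proteins of the myelin surface and its junctions, Mog, an outer surface protein of the immunoglobulin family, was at 12.7, 30.7 and 34.3 FPKM in Sst females, at 11.7, 12.8 and 35.9 FPKM in numbered and at 13, 30.2 and 31.0 FPKM in dated males. After CUS it was at 36.9, 44.5 and 48.9 FPKM, above all Sst controls. In the Pvalb samples 5 of 6 lay between 5.71 and 10.1 FPKM and the PV0-M and PV2-M pair was at 48.9 FPKM. Mag, an adhesion protein next to the axon, was the member that set the kinds of title apart most. It was at 10.6, 15.4 and 18.3 FPKM in numbered males, at 25.3, 66.2 and 71.1 FPKM in dated males and at 89.6, 94.5 and 111 FPKM after CUS, and these ranges did not overlap. Cldn11, the claudin of the tight junctions between myelin layers, was at 18.3, 21.6 and 26.0 FPKM in Sst females, while male controls ran from 7.74 to 58.4 FPKM and the CUS samples were at 55.5, 70.1 and 70.5 FPKM. The Pvalb samples other than the PV0-M and PV2-M pair had 5.23 to 8.64 FPKM.

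Cnp, an enzyme of the non-compact myelin, was at 71.0, 107 and 119 FPKM in Sst females and 46.2 to 231 FPKM in male controls, and the CUS samples, at 141, 160 and 166 FPKM, lay inside the range of the males. The transcription factor Sox10, which acts on many myelin genes, was at 12.6, 15.3 and 19.0 FPKM in Sst females, at 6.72 to 33.9 FPKM in male controls and at 41.1, 42.5 and 50.1 FPKM after CUS. In the Pvalb samples it was at 4.21 to 7.75 FPKM in 5 and at 18.7 FPKM in the pair. Olig1, a transcription factor that oligodendrocytes already have as precursors, had similar medians in the groups. They were 27.6 FPKM in Sst females, 21.9 FPKM in male controls, 29.0 FPKM after CUS and 29.6 FPKM in the Pvalb samples, and all groups overlapped.

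**Figure D1:**
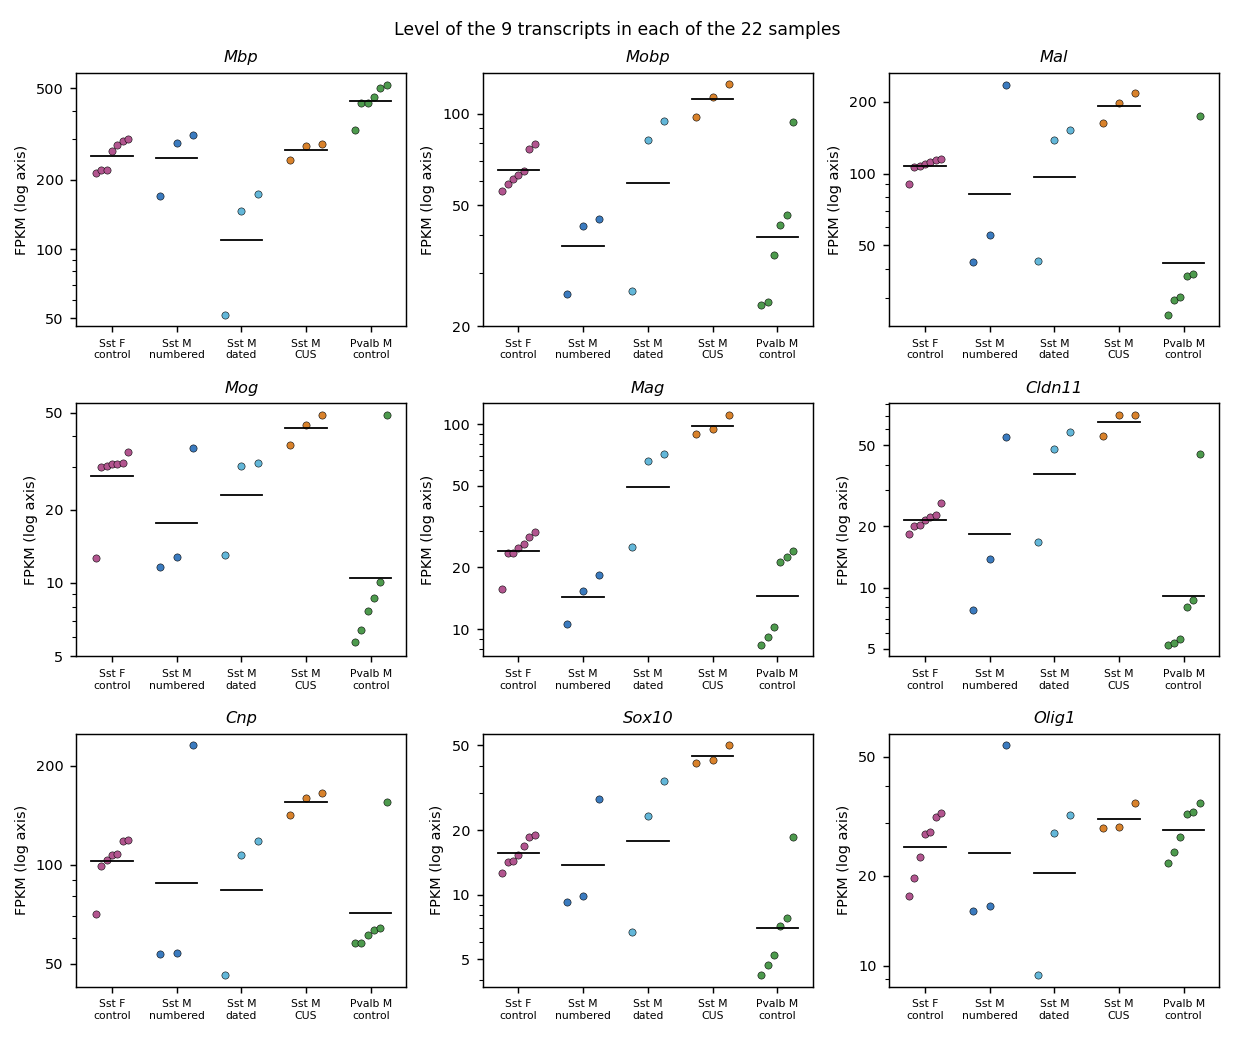
FPKM (log axis) of each of the 9 transcripts in the 22 samples, by group, with 1 point a sample and a line at the group mean of log2(FPKM + 1) turned back to FPKM. The CUS samples lie above all Sst male controls for Mobp, Mog, Mag and Sox10. The PV0-M and PV2-M pair lies above the 5 other Pvalb samples for Mobp, Mal, Mog, Cldn11, Cnp and Sox10, and narrowly for Mag.

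Promoters of 6 members (Mal, Cldn11, Mag, Mobp, Cnp and Mog) were taken from RefSeq for GRCm38.p6, with 3 start sites for Mag. Mbp was left out of the search, and Sox10 and Olig1 had no promoter window. The 250 bases before each start were searched on both strands for 3 short motifs. ACAAAG is a form of the core bound by SOX factors such as SOX10, CTGGCAC is a core bound by the oligodendrocyte factor MYRF, and CANNTG is the E-box of basic helix-loop-helix factors such as OLIG1. The strings were in 16.5%, 4.19% and 66.2% of all 32851 promoter windows of that length, and in the windows of 3, 2 and 2 of the 6 members. A member was counted if any of its windows matched, and Mag has 3. The counts of members and the shares of windows are therefore unlike measures. Those printed are of the members with a window that varied most alike across samples (Mal, Cnp and Cldn11), and of Mobp, whose window holds 6 copies of ACAAAG or its complement. No other window of the 32851 holds 6 or more. Matches are in capitals and none overlaps another. All are written 5′ to 3′ on the strand of the gene.
Cnp, chr11:100574689-100574938, plus strand: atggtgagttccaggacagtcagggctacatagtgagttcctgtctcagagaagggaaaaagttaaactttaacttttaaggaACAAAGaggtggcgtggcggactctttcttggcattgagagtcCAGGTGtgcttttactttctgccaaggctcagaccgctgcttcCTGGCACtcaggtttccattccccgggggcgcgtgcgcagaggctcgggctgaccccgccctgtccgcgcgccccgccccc
Mobp, chr9:120149492-120149741, plus strand: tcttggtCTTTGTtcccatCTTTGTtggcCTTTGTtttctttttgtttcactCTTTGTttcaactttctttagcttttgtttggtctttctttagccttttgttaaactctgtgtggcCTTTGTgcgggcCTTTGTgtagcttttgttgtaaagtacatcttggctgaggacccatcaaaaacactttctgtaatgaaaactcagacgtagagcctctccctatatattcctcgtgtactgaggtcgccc
Mal, chr2:127656696-127656945, minus strand: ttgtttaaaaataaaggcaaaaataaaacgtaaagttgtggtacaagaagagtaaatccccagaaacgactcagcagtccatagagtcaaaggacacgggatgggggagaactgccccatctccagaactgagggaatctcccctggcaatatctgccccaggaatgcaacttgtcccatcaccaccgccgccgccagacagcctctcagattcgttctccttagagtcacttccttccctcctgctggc
Cldn11, chr3:31149670-31149919, plus strand: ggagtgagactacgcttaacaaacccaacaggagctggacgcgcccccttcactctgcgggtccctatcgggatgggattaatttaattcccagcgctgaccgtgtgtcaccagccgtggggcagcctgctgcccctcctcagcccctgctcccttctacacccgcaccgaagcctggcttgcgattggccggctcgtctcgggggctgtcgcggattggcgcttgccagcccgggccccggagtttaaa
Mal and Cldn11, which followed Cnp closely across samples, have none of the 3 strings in these windows. A match is a string of letters, and binding was not measured.

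To examine the effect of stress in Sst males, the 3 CUS samples were compared with the 6 male controls. The mean of all 9 transcripts was higher after CUS, with a median difference of 1.09 on the log2(FPKM + 1) scale, against 0.02 over the 14319 genes tested. The difference was largest for the adhesion protein Mag (1.83 ± 0.56, SE), followed by Sox10 (1.45 ± 0.48), Cldn11 (1.30 ± 0.60), Mobp (1.25 ± 0.43), Mal (1.09 ± 0.55) and Mog (1.06 ± 0.40). It was smallest for Cnp (0.85 ± 0.48), Mbp (0.70 ± 0.49) and Olig1 (0.47 ± 0.46). None of the 9 passed the test (limma with Benjamini-Hochberg adjustment, adjusted p = 0.641 to 0.710), and 4 had an unadjusted p under 0.05, as had 7.47% of all genes. Of all genes, 1 passed, which is 0.00698%. The CUS samples did not overlap with the controls for Mobp, Mog, Mag and Sox10, all higher, against a background of 3.87% of all genes that were higher without overlap.

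Against the 3 dated controls, which share the kind of title with the CUS samples, the 9 differences were again positive, from 0.58 ± 0.42 for Olig1 to 1.28 ± 0.51 for Sox10 and 1.29 ± 0.43 for Mbp. None passed (adjusted p = 0.647 to 0.674), as for all but 0.00705% of genes, and 5 had an unadjusted p under 0.05, against 6.74% of all genes. The groups did not overlap for 7 of the 9 (all but Cldn11 and Olig1), against 9.33% of all genes that were higher without overlap. These values rest in part on SS04031R. It is also the only control whose title begins with SS04031, as all 3 CUS titles do. When it is left out, CUS and this beginning of the title cannot be told apart. Without it, an alternative chosen after seeing the data, the differences were 0.75 for Mbp, 0.64 for Sox10, 0.51 for Mag, 0.46 for Cnp and 0.34 for Mobp and 0.05 for Olig1, and none passed, against 0.113% of all genes. An unadjusted p under 0.05 was found for 7 members and for 10.4% of all genes.

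Against the 3 numbered controls, Mag was higher by 2.68 ± 0.24 (adjusted p = 0.00341, limma), Mobp by 1.58 ± 0.27 (adjusted p = 0.0141) and Sox10 by 1.62 ± 0.42 (adjusted p = 0.0441), and the other 6 did not pass. In that comparison 16.1% of all genes passed, and CUS and the kind of title cannot be told apart. Small nucleolar RNAs took 54.6% to 75.7% of the summed FPKM after CUS, 53.5% to 60.3% in dated and 3.38% to 5.07% in numbered controls, and their part in the differences was not tested. Mbp differed least there, by 0.11 ± 0.28, while against dated controls it differed most.

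Other cell markers also varied in these samples, not all in the direction of the members. The summed level of the microglia genes was 3793 to 4559 FPKM after CUS, below all male controls (4761 to 10677 FPKM). The 10 endothelial genes summed to 225 to 328 FPKM after CUS and 21.4 to 327 FPKM in the controls, and in SS04031R both endothelial (21.4 FPKM) and pericyte genes (9.3 FPKM) were at the low end. The part of these markers in the differences of the members was not tested.

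**Figure D2:**
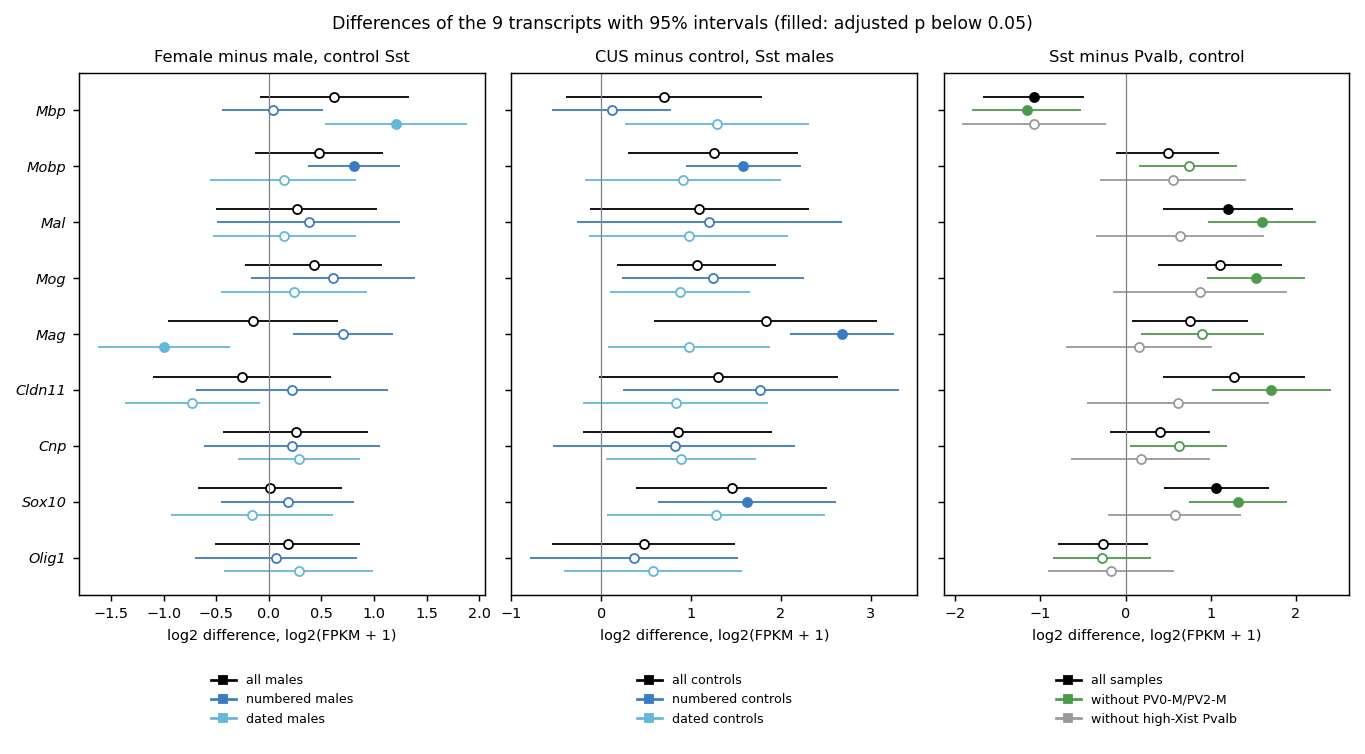
Difference of each transcript on the log2(FPKM + 1) scale with its 95% interval from limma, for the sexes in control Sst samples, CUS in Sst males and the lines, each with its main samples (black) and with selected samples (colours), filled where the adjusted p was below 0.05. All CUS differences lie to the right of 0, and in the comparison of lines Mbp lies to the left and Mal, Mog, Cldn11 and Sox10 to the right.

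The lines were compared over 13 nonstressed Sst samples and 6 Pvalb samples. Mbp was lower in Sst (-1.08 ± 0.29 on the log2(FPKM + 1) scale, SE, adjusted p = 0.0251, limma), with no overlap between 51.9 to 314 FPKM in Sst and 329 to 518 FPKM in Pvalb. Mal (1.20 ± 0.37, adjusted p = 0.0464) and Sox10 (1.06 ± 0.30, adjusted p = 0.0315) were higher in Sst. Of all genes, 7.80% passed, and 0.475% were lower in Sst without overlap. Cldn11 (1.27 ± 0.40, adjusted p = 0.0527) and Mog (1.11 ± 0.35, adjusted p = 0.0549) narrowly missed the threshold, and Mag (0.76 ± 0.33), Mobp (0.49 ± 0.29), Cnp (0.40 ± 0.28) and Olig1 (-0.26 ± 0.26) did not pass. Mbp thus differed from Mal and Sox10 in the direction of its difference between the lines.

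Marker lists differed between the lines as well. Microglia genes had a median sum of 5207 FPKM in Sst and 9473 FPKM in Pvalb, neuron genes 90.8 and 280 FPKM, endothelial genes 187 and 16.4 FPKM and pericyte genes 181 and 23.4 FPKM, and their part in the differences of the members was not tested.

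The PV0-M and PV2-M pair lay among the nonstressed Sst samples for Mal, Cldn11 and Sox10 and above all of them for Mog. Without it, an alternative chosen after seeing the data, Mal (1.60 ± 0.31), Mog (1.53 ± 0.28), Cldn11 (1.71 ± 0.34) and Sox10 (1.32 ± 0.28) were higher in Sst and Mbp lower (-1.16 ± 0.31), all 5 past the threshold, with 14.7% of all genes. Mal and Mog then no longer overlapped between the lines, against 1.51% of all genes that were higher in Sst without overlap. The pair also had 151 FPKM of the endothelial genes, 313 FPKM of the 6 pericyte genes and 49.3 FPKM of the 9 neuron genes, against 12 to 17.6, 11.4 to 29.1 and 269 to 350 FPKM in the 5 other Pvalb samples. Whether these markers account for the levels of the members was not tested.

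The 5 other Pvalb samples are those with high Xist and those without (PV3-M and PV6-M). Mag was at 8.39, 9.17 and 10.2 FPKM in the former and at 21.4 and 22.4 FPKM in the latter, while Mobp was at 34.4, 46.5 and 43.2 FPKM in the former and at 23.5 and 24.1 FPKM in the latter. Mag was thus lower and Mobp higher in the libraries with high Xist, and no test was made. Ttr, a gene of the choroid plexus, was at 85.5 to 87.2 FPKM in the former and at 4.61 and 6.31 FPKM in the latter, and its part was not tested. When the 3 samples with high Xist were left out, no member passed (limma), against 0.0964% of all genes, and 1 had an unadjusted p under 0.05, against 11.9% of all genes. Mbp then differed by -1.08 ± 0.40 (adjusted p = 0.311), Mal by 0.64 ± 0.47 and Sox10 by 0.58 ± 0.38. With only the 6 male Sst samples, Mbp alone passed (-1.41 ± 0.36, adjusted p = 0.0473), against 3.41% of all genes.

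To examine sex, 7 female and 6 male nonstressed Sst samples were compared. None of the 9 passed (limma, adjusted p = 0.220 to 0.992, none with an unadjusted p under 0.05), while 11.7% of all genes did and 30.6% had an unadjusted p under 0.05. Females were higher on average for 7, by 0.62 ± 0.33 for Mbp, 0.48 ± 0.29 for Mobp and 0.43 ± 0.31 for Mog, with 95% intervals of -0.09 to 1.33, -0.13 to 1.09 and -0.22 to 1.08. Mal (0.26 ± 0.36), Cnp (0.25 ± 0.32), Olig1 (0.18 ± 0.32) and Sox10 (0.01 ± 0.32) were nearer 0. Mag (-0.15 ± 0.38) and Cldn11 (-0.26 ± 0.40) were lower on average. The median of the 9 was 0.25, against 0.07 over all genes. The spread was unequal, since the SD of log2(FPKM + 1) was 0.12 for Mal in females and 1.05 in males, and 0.16 and 1.17 for Cldn11.

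The values depended on the kind of title of the males. Against numbered males, whose titles are of the kind of nearly all females, Mobp was higher in females by 0.81 ± 0.20 (adjusted p = 0.0493, limma) and the other 8 did not pass, with 3.41% of all genes passing. Against dated males, Mbp was higher in females by 1.21 ± 0.31 (adjusted p = 0.00839) and Mag lower (-1.0 ± 0.29, adjusted p = 0.016), with 41.5% of all genes passing. Mag was on average higher in females than in numbered males, by 0.70 ± 0.22. Sex and kind of title cannot be told apart in the comparison with dated males, in which small nucleolar RNAs took 1.87% to 6.22% of the summed FPKM in females against 53.5% to 60.3% in males.

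The male controls were also compared with each other by title. The dated minus numbered difference was 1.71 ± 0.44 for Mag, without overlap, as for 16.4% of all genes that were higher in dated males, and -1.17 ± 0.51 for Mbp, but neither passed the threshold (limma, adjusted p = 0.0735 and 0.215), nor did any other member, and 4.11% of all genes passed. Mag had the only unadjusted p under 0.05 of the 9, against 23.6% of all genes. Without SS04031R, Mag passed, with 1.05% of all genes. The difference in the share of small nucleolar RNAs given above goes with the kind of title, and its part was not tested.

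The make-up of the summed level set Mbp apart, a pattern chosen after the values were seen and given as a description. In Sst females Mbp was 34.6% to 50.2% of the summed FPKM of the 9, in numbered males 29.2% to 58.5%, in dated males 21.7% to 22.8%, after CUS 24.5% to 30.3%, and in 5 of the Pvalb samples 68.7% to 73.2%, with 35.9% in the pair. The ratio of Mbp to Mobp was 6.67 to 6.98 in numbered males and 1.77 to 1.99 in dated ones, so in the male controls it was narrow within a kind of title. This was not particular to Mbp and Mobp, since Mag to Mobp was 0.359 to 0.417 in numbered and 0.749 to 0.967 in dated males. Mbp to Mal and Mbp to Cnp were wide in numbered males, at 1.22 to 5.67 and 1.25 to 5.85. In dated males they were 1.05 to 1.21 and 1.12 to 1.47. The ratio of Mbp to Mobp was 3.32 to 5.40 in females, 2.14 to 2.91 after CUS and 9.27 to 21.5 in the 5 Pvalb samples. SS04031R, where the 9 summed to 238 FPKM, had a ratio of 1.99, close to the 1.77 and 1.82 of the other dated controls.

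**Figure D3:**
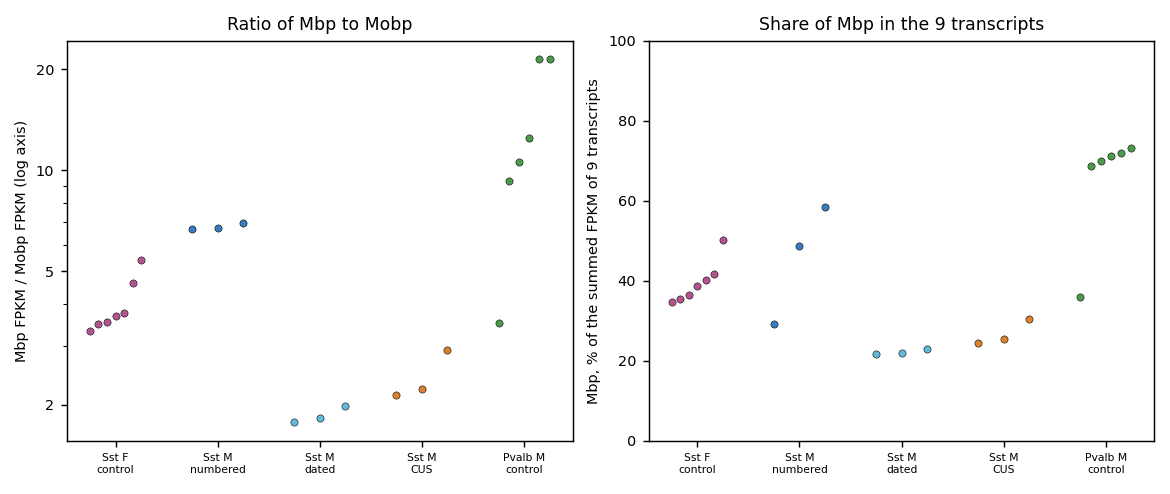
Left, ratio of the FPKM of Mbp to that of Mobp (log axis), and right, Mbp as a percentage of the summed FPKM of the 9 transcripts, with 1 point for each of the 22 samples by group. The ratio is 1.77 to 1.99 in dated and 6.67 to 6.98 in numbered Sst males, and the share is above 68% in 5 of the 6 Pvalb samples.

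Within groups, the members varied together to different degrees. After the mean of each group and title kind was subtracted, Pearson's r with the mean of the other 8 over 22 samples was 0.949 for Mal and for Sox10, 0.936 for Cnp, 0.922 for Cldn11, 0.811 for Mog, 0.756 for Mobp, 0.657 for Olig1, 0.637 for Mag and 0.363 for Mbp. The points share libraries, and a few samples far from their group (SS04031R, the 2 averaged pairs and SST-F) weigh heavily in them. Outside all lists used here, the 5 genes most like the mean of the 9 by the same measure were Clic4 (r = 0.968), Tmem88b (0.954), Edil3 (0.953), Nfia (0.950) and Lrrn1 (0.949). Their levels between groups were not all like those of the members, since Clic4 was at 41.1 FPKM after CUS and 21.9 FPKM in dated controls, but Nfia at 20.3 and 19.7 FPKM.

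A wider list of 52 oligodendrocyte genes was followed for context. In the CUS comparison 44 of the 50 tested were higher on average, with a median of 0.85, while 51.3% of all genes were higher on average. None passed (limma), and 17 of the 50 had an unadjusted p under 0.05, against the 7.47% of all genes. These differences are over dated and numbered controls together. Pmp22, a peripheral myelin protein, was lower on average, at 42.7 to 48.7 FPKM after CUS. It was at 53.7 to 72.6 FPKM in dated controls and at 174 to 516 FPKM in numbered ones, so most of the control range lay between the kinds of title. Of the lipid enzymes, Cers2, a ceramide synthase, differed by -0.39 ± 0.37. Its levels were 30.5 to 40.1 FPKM after CUS, 29.3 to 34.7 FPKM in dated controls and 58.7 FPKM or more in numbered ones. Of the secreted and other mature genes, Trf, which codes for transferrin, differed by 0.45 ± 0.31 and Car2, a carbonic anhydrase, by 0.99 ± 0.40. The transcription factor Tcf7l2 (-0.04 ± 0.19) and Itpr2, a calcium channel of newly formed oligodendrocytes (-0.01 ± 0.23), were close to 0.

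Between the sexes, 6 of the 50 genes passed as higher in females and 1 as lower, against the 11.7% of all genes that passed. The 3 lipid enzymes among them were Fa2h, which hydroxylates fatty acids (1.35 ± 0.24, adjusted p = 0.00911), Aspa, which frees acetate from N-acetylaspartate (1.25 ± 0.34), and Elovl7, a fatty acid elongase (1.22 ± 0.37). The transcription factors Zfp488 (1.21 ± 0.33) and Nkx2-2 (0.97 ± 0.24) and the deacetylase Sirt2 (0.83 ± 0.24) were higher as well, and the tetraspanin Cd9 was lower (-0.68 ± 0.20). Fa2h was at 33.9 to 47.2 FPKM in females and 6.09 to 24.6 FPKM in males, and the sexes did not overlap for Nkx2-2 either. They did for Aspa, at 15.9 to 39.4 FPKM in females and up to 17.2 FPKM in males. Elovl7 was at 6.78 to 12.1 FPKM in females but at 13.8 and 13.9 FPKM in SST0-M and SST1-M. The sex differences of the wider list are over dated and numbered males together and are not given within one kind. Zfp488 was at 209 to 303 FPKM in females and at 205 and 270 FPKM in SST3-M and SST4-M. Sirt2 was at 85.8 to 106 FPKM in females and at 91.3 and 87.9 FPKM in SST3-M and SST4-M. The other male libraries had at most 97.7 FPKM of Zfp488 and 44.04 FPKM of Sirt2. Between the lines, 5 of 51 passed as higher in Sst, among them Anln, Gpr37, St18 and Fyn, and 2 as lower (Sirt2 and Lhfpl3), against the 7.80% of all genes that passed. Bcas1, a gene of newly formed oligodendrocytes, was on the side of Mbp, at -0.90 ± 0.28 for Sst minus Pvalb (adjusted p = 0.0521), which missed the threshold. Between the title kinds, Pmp22 was lower in dated males (-2.13 ± 0.44, adjusted p = 0.0447) and the tetraspanin Cd82 higher (2.40 ± 0.44, adjusted p = 0.03).

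The levels of the members stood beside those of other cell types in every group. The gene of each list with the highest mean over all samples is named here. Among microglia genes it was Ctss, a lysosomal protease, at 502 to 3831 FPKM, and the 10 astrocyte genes (Aldoc) summed to 600 to 2189 FPKM. The neuron genes (Snap25) summed to 45.5 to 350 FPKM and the 7 genes of excitatory neurons (Camk2a) to 28.9 to 552 FPKM, highest in the 5 Pvalb samples. Among endothelial genes it was Slco1a4, at 0.43 to 100.2 FPKM, and among pericyte genes Vtn, at 0.91 to 229 FPKM. Genes of the choroid plexus reached 89.3 FPKM in Pvalb samples, nearly all Ttr, with Folr1 and Ccdc153 at 0 in all of them. In SST-F, which had the lowest Mobp, Mal, Mog, Mag, Cnp and Olig1 of the females, neuron genes summed to 273 FPKM and pericyte genes to 436 FPKM, the highest of the females. The part of these markers was not tested.

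**Figure D4:**
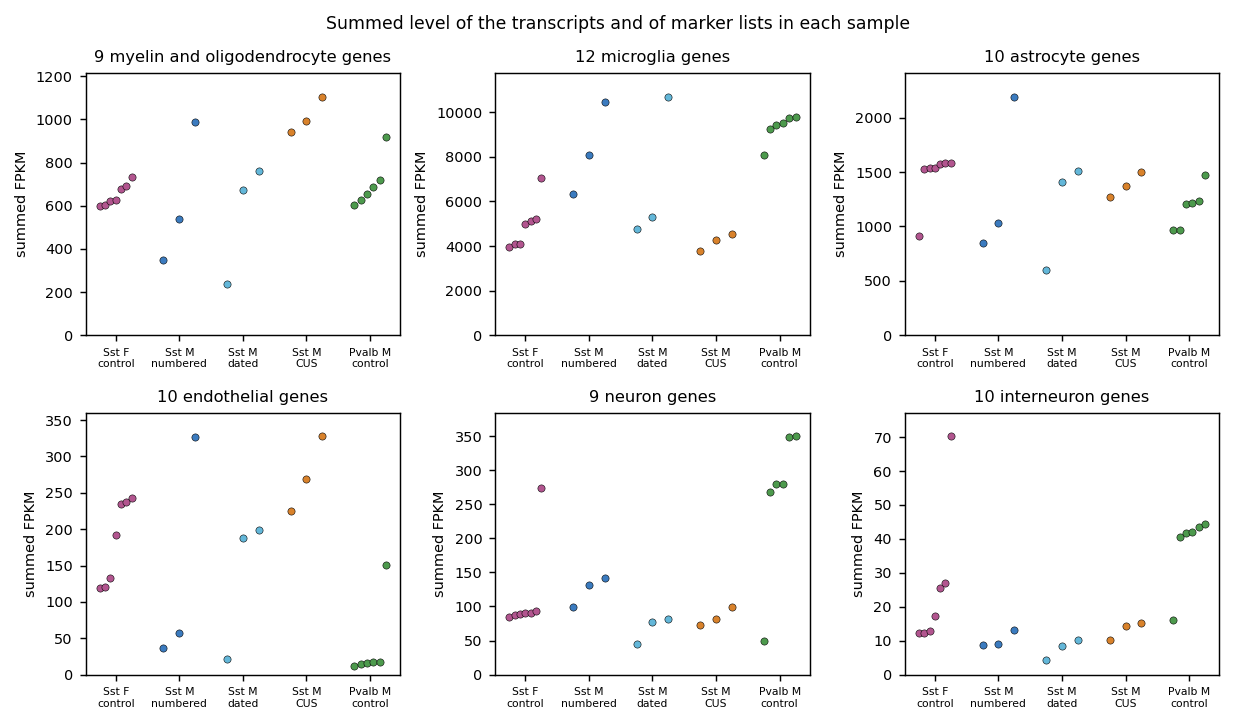
Summed FPKM of the 9 transcripts and of 5 marker lists (microglia, astrocyte, endothelial, neuron and interneuron genes), with 1 point for each of the 22 samples by group. The CUS samples have sums of the 9 transcripts of 940 to 1103 FPKM, where the controls reach 985 FPKM, and low sums of microglia genes, and interneuron genes stay below 71 FPKM throughout.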

How the data were processed

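The files hold a single table of FPKM that the authors deposited, with 23993 genes and 24 libraries. Per the labels, polyA RNA of sorted cells was sequenced, whereas the study's methods name the Pico RiboGone-Mammalian kit and no polyA selection. The submitters' processing notes name TopHat2, Cufflinks, Cuffdiff and mm10. The study's methods name HISAT2 and StringTie as well, and state that samples far from their group mean were removed and that ComBat was used, without saying whether on these values. The table holds no read counts for the libraries, so no counting error is given. Steps of low values put the libraries at 0.457 to 2.48 times the depth of SST2-F, approximately. Small nucleolar RNAs took a far larger share of the summed FPKM in libraries with dated titles.

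Groups follow the labels. A pair of libraries was averaged where its log2 ratio over genes above 5 FPKM had an SD below 10% of the value for the pair next in likeness. Genes with a mean above 0.4 FPKM were tested on log2(FPKM + 1) by limma (version 3.58.1, R 4.3.3), with the trend and robust options of eBayes and two-sided p-values. P-values were adjusted by Benjamini-Hochberg over the whole table of genes tested, and 0.05 was the threshold. Changes of low genes are understated on this scale. The labels do not say which libraries are separate animals, so p-values measure the spread between these samples, which may be technical. The procedure was run on simulated data with independent noise for each gene and equal spread in both groups. These samples include some far from their group and have unequal spread, so that run does not show how the test performs on them. The members and lists were chosen with earlier results of these data known. Named genes were the 9 members and, by rule, the most abundant genes of each list, listed genes past the threshold and the 5 genes most alike. Bcas1 as a gene on the side of Mbp and the ratios between members were picked after their values were seen. So were the levels of Clic4, Nfia, Pmp22, Cers2, Aspa, Elovl7, Zfp488 and Sirt2. A few list genes are left unnamed here, while counts and sums cover every gene of a list. Alternatives were the pseudocount, the filter, the scaling, the averaging, the choice of samples and a block on title numbers. Sequences are from RefSeq (GRCm38.p6).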

Additional observations from a re-analysis of the deposited data

Results flagged for a closer look

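In 27 groups of samples (9 transcripts in the Sst females, Sst male controls and Pvalb samples), 1 sample lay far from the others in 9. Chance gives about 1 in 20 for a group taken alone. The transcripts vary together and the same samples recur, so the 27 are not separate tests and their count is not set against that rate. In the Pvalb samples the averaged PV0-M and PV2-M pair was the one apart for 6 transcripts. It had 93.7 FPKM of Mobp (the others up to 46.5 FPKM), 174 FPKM of Mal (up to 37.8 FPKM), 48.9 FPKM of Mog (up to 10.1 FPKM), 45.3 FPKM of Cldn11 (up to 8.64 FPKM), 156 FPKM of Cnp (up to 64.0 FPKM) and 18.7 FPKM of Sox10 (up to 7.75 FPKM). Among the Sst females SST-F was apart for 3. It had 90.1 FPKM of Mal (the others from 106 FPKM), 12.7 FPKM of Mog (from 30.0 FPKM) and 71.0 FPKM of Cnp (from 98.7 FPKM).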

How the results depend on the processing

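Of 414 values of the members under other settings, 357 kept their direction and their side of the threshold, 24 newly passed, 8 no longer passed and 25 changed sign. All CUS values kept their sign. The number of members past the threshold was 0 in the CUS comparison, except 3 against numbered controls. In the comparison of lines it was 3, and it was 5 with scaling to a common median, with female Sst samples, without the PV0-M and PV2-M pair or without SS04031R, 2 with no filter, 1 with male Sst samples or with near-identical libraries kept apart, and 0 without high Xist. In the sex comparison it was 0, with 1 against numbered and 2 against dated males. Between title kinds it was 0, with 1 when near-identical libraries were kept apart, and 0 to 1 when each replicate was left out, where an arm of 2 samples is assumed to vary like the other.

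The signs that changed were in the comparisons of sex and of title kinds. For sex, Sox10 was at -0.01 with scaling to a common median, Sox10 at -0.11 and Olig1 at -0.01 with near-identical libraries kept apart, Mag at 0.70 and Cldn11 at 0.22 with numbered males, and Sox10 at -0.16 with dated males. Without SS04031R, Sox10 was at -0.21 and Olig1 at -0.06. For title kinds, Cnp was at 0.01 with scaling and Mal at -0.15 with libraries kept apart. With each replicate left out in turn, Mal ran from -0.24 to 0.98, Cnp from -0.42 to 0.63, Sox10 from -0.11 to 0.98 and Olig1 from -0.52 to 0.37. The cause was not tested. Settings that leave out SS04031R, SST-F or an averaged pair, and unblocked fits of the block's samples, were chosen after seeing the data.

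Titles of different groups share numbers, but samples with the same number did not deviate together (correlations of -0.04 to 0.06, and 0 of 3 and 1 of 6 correlated best with their own number), so the numbers do not pair them. With a replicate block, 6 members passed between the lines, against 8 in the same samples without it, and 0 between the sexes, where Mbp was at -0.18, Mag at 0.89 and Cldn11 at 0.13 with the block and at the same values without it.

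Over all genes, the number past the threshold for sex was 1699. It was 11 with the block, 24 in the same samples without the block and 6032 with dated males. The number was 1133 for the lines (14 without high Xist, 4572 in the samples of the block), 585 for title kinds (54 to 1962 with each replicate left out) and 1 for CUS (2309 with numbered controls). The table holds no read counts, and only 3 dated controls share the title kind of the CUS samples.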
